A study of Mus musculus with 12 samples.

Results

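The mitosis and spindle genes are 45 genes chosen by name for their part in cell division: the cyclin-dependent kinase switch, the mitotic kinases, the kinetochore and its checkpoint, the machinery that separates sister chromatids, spindle motors, cytokinesis factors and chromosome proteins. The list was chosen with earlier results of these data known, so shares of members set beside all genes are a description only. A gene was followed through the probe sets that carry its symbol and no other. Such probe sets, 72 in all, were found for 42 of the 45 genes, out of 12393 genes with a symbol of their own in the whole series. Ccnb1, Cdca8 and Espl1 had none and have no value here. A gene with several probe sets was read from the one with the highest mean, and 40 of the 42 passed a filter that kept probe sets with a mean of at least 4.48 log2 over the 12 arrays. Cdc25c and Aurkb did not pass.

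The cells were 5CC7 T cells, which carry a transgenic T cell receptor, moved into B10.A recipient mice by tail vein. The agents were MCC, known as a strong agonist peptide of this receptor, and 102S, known as a weak one, each given by vein in PBS at 2 µg or at 0.2 µg. This gives 4 groups of 3 arrays: MCC 2 µg, MCC 0.2 µg, 102S 2 µg and 102S 0.2 µg, all of sorted cells collected 48 h after the injection from pooled lymph nodes. No cells without peptide are analysed here, so every comparison is between stimulated groups. The labels do not say that the replicates came from separate animals, so a p-value here speaks only for the spread of these arrays.

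T cells that meet their antigen enter a burst of division. In each division, cyclin A and cyclin B bind CDK1 and drive the cell into mitosis, the Aurora and Polo kinases build the spindle, and kinetochores tie chromosomes to microtubules. The spindle checkpoint holds the anaphase-promoting complex (APC/C) back until every chromosome is attached; the APC/C with Cdc20 then marks cyclin B and securin for destruction, sister chromatids part, and a contractile ring divides the cell. Most of these genes are transcribed only late in the cycle, so their transcripts are rare in resting T cells. In bulk samples of this kind, fewer dividing cells and less mitotic RNA per cell cannot be told apart.

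Late cell cycle genes are known to share a promoter layout, a cell cycle homology region (CHR, TTTGAA or TTCGAA) near the start of transcription and CCAAT boxes upstream of it. RefSeq promoters (GRCm38.p6, 250 bases before to 50 after a start) were at hand for 38 of the 45 members, 40 promoters in all. On either strand, 75% of them held a CHR, against 19.2% of all 32851 promoters, and 75% held CCAAT, against 37.4%. A stretch of bases could count for more than 1 motif. Both motifs stood together in 67.5% of the member promoters and in 7.52% of all promoters. An E2F word (TTTGGCGC, TTTCGCGC or TTTCCCGC) was found in 5% of member promoters, those of Cdk1 and Ncapd2, and in 1.84% of all. Within 100 bases before to 50 after the start, a CHR stood in 70% of member promoters against 8.59% of all. Birc5, Mad2l1, Melk, Ncaph, Nuf2, Nusap1 and Pttg1 held neither CHR nor CCAAT in these windows. A match is a description of the letters only. The 250 bases before the start are printed for 6 members, 5' to 3' on the strand of the gene, with CHR and CCAAT letters (TTCAAA and ATTGG on the opposite strand) in capitals. Mki67, Ube2c, Cdk1, Cdc20 and Kif11 are shown as members of different roles that hold both motifs, and Nusap1 as one that holds neither. They lie at chr7:135716380-135716629 (- strand), chr2:164769679-164769928 (+ strand), chr10:69352913-69353162 (- strand), chr4:118437344-118437593 (- strand), chr19:37376132-37376381 (+ strand) and chr2:119618048-119618297 (+ strand), in that order.
Mki67: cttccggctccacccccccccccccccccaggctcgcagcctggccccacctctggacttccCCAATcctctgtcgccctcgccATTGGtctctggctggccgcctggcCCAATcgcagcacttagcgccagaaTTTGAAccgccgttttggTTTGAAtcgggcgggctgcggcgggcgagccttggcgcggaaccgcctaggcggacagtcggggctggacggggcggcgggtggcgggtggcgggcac
Ube2c: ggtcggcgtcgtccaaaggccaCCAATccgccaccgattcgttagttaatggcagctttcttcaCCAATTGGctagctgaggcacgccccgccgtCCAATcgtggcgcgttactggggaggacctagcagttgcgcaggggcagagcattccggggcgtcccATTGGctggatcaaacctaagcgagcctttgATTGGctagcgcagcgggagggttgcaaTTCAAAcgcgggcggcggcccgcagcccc
Cdk1: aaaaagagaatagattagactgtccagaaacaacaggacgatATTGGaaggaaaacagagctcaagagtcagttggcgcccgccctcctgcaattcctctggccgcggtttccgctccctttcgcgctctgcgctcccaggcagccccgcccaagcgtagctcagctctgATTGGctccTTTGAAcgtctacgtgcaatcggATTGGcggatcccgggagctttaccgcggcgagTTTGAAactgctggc
Cdc20: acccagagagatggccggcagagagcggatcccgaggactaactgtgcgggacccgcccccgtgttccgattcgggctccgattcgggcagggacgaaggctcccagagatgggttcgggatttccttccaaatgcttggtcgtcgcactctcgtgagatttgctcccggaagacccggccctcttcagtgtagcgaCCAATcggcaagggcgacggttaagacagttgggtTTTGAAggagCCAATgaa
Kif11: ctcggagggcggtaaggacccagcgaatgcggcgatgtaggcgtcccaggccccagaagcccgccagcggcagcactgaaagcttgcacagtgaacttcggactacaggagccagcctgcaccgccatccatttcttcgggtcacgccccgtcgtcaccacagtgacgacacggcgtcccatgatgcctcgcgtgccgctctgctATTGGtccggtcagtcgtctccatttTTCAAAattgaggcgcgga
Nusap1: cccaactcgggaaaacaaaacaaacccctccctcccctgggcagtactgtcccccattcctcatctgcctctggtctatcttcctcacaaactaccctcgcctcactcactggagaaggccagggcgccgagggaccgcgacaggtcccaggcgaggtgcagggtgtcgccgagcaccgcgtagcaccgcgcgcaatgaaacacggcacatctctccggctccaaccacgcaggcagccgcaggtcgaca
The CHR nearest to the start began at position -98 in Mki67, -29 in Ube2c, -15 in Cdk1, -18 in Cdc20 and -19 in Kif11, counted from the first transcribed base.

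Every array carried the transcripts of T cells, the mean of 6 T cell genes (Cd3d, Cd3e, Cd3g, Cd4, Cd28 and Thy1) lying between 10.5 and 10.8 log2. Some markers of other lymphocytes shifted with the groups and others did not. Cd8a, Cd8b1 and Nkg7 were not called by limma between the peptides at either dose. With MCC 2 µg, MCC 0.2 µg, 102S 2 µg and 102S 0.2 µg, Nkg7 averaged 6.24, 6.60, 6.34 and 6.29 log2. In that order Cd8a averaged 5.55, 5.59, 5.78 and 5.97, and Cd8b1 7.42, 7.41, 7.66 and 7.88. The mean of 6 CD8 T and NK cell genes was 5.14 to 5.22 with MCC 2 µg, 5.53 to 6.09 with MCC 0.2 µg, 5.91 to 5.97 with 102S 2 µg and 6.15 to 6.59 with 102S 0.2 µg, and of its 5 tested genes Klrd1 and Gzma were lower with MCC at 2 µg and Klrd1 at 0.2 µg, while the NK receptor gene Ncr1 was at 2.50 to 3.42 throughout. The mean of 6 B cell genes was 6.10 to 6.33, 6.06 to 6.08, 5.74 to 5.82 and 5.66 to 6.24 in the same group order, with Cd74 higher with MCC at both doses, Cd79b higher and Ighm lower with MCC at 0.2 µg, Cd79a at 3.79 to 4.49 and Ms4a1 at 3.42 to 4.91. Of plasma cell, dendritic cell, myeloid and erythroid markers, the list means reached at most 4.60 log2 on any array and 0 of the 4 genes that passed the filter were called. Prdm1, a regulator of plasma cell and effector T cell fate in that list, lay below the filter by its mean and averaged 3.32 with MCC 2 µg, 3.77 with MCC 0.2 µg, 4.17 with 102S 2 µg and 5.22 log2 with 102S 0.2 µg, with no overlap between the peptides at either dose. The replicate 1 arrays of all 4 groups were female-type (Xist 11.7 to 12.3, against 4.05 to 5.10 on the other arrays, and Eif2s3y 3.31 to 4.26 against 8.75 to 9.37). The signal of β-actin at its 3' end over that at its 5' end, a measure of RNA integrity, was 0.50 to 0.72 log2 with MCC 2 µg and 0.81 to 1.62 with 102S 2 µg, which did not overlap. It was 0.74 to 2.33 with MCC 0.2 µg and 0.76 to 2.35 with 102S 0.2 µg. The part of the lymphocyte markers in the results below was not tested. Values without replicate 1, and with β-actin in the fit, stand beside them.

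The members followed one order across the groups: highest with MCC 2 µg, then MCC 0.2 µg, then 102S 2 µg, and lowest with 102S 0.2 µg. The group means stood in this order for 35 of the 40 tested members (87.5%), against 9.91% of all 7945 tested genes. For 19 members (47.5%), against 0.894% of all genes, no array of a group overlapped with the next group. Ndc80, Spc25, Mad2l1, Smc4 and Ncaph departed from the order of means. Averaged over the 40 members, MCC 2 µg arrays lay 2.89 ± 0.11 log2 above the mean of 102S 0.2 µg, MCC 0.2 µg arrays 2.42 ± 0.08, and 102S 2 µg arrays 1.58 ± 0.32 (SD, n = 3; SD 0.12 within 102S 0.2 µg). On the log2 span from 102S 0.2 µg to MCC 2 µg, the 102S 2 µg mean lay at 48.9% in the median member (21.1% to 103%) and the MCC 0.2 µg mean at 83.0% (49.4% to 104%). For 24 members the 102S 0.2 µg mean at the low end of this span lay below the filter, so their percentages and the averages over members rest in part on such values.

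**Figure D1:**
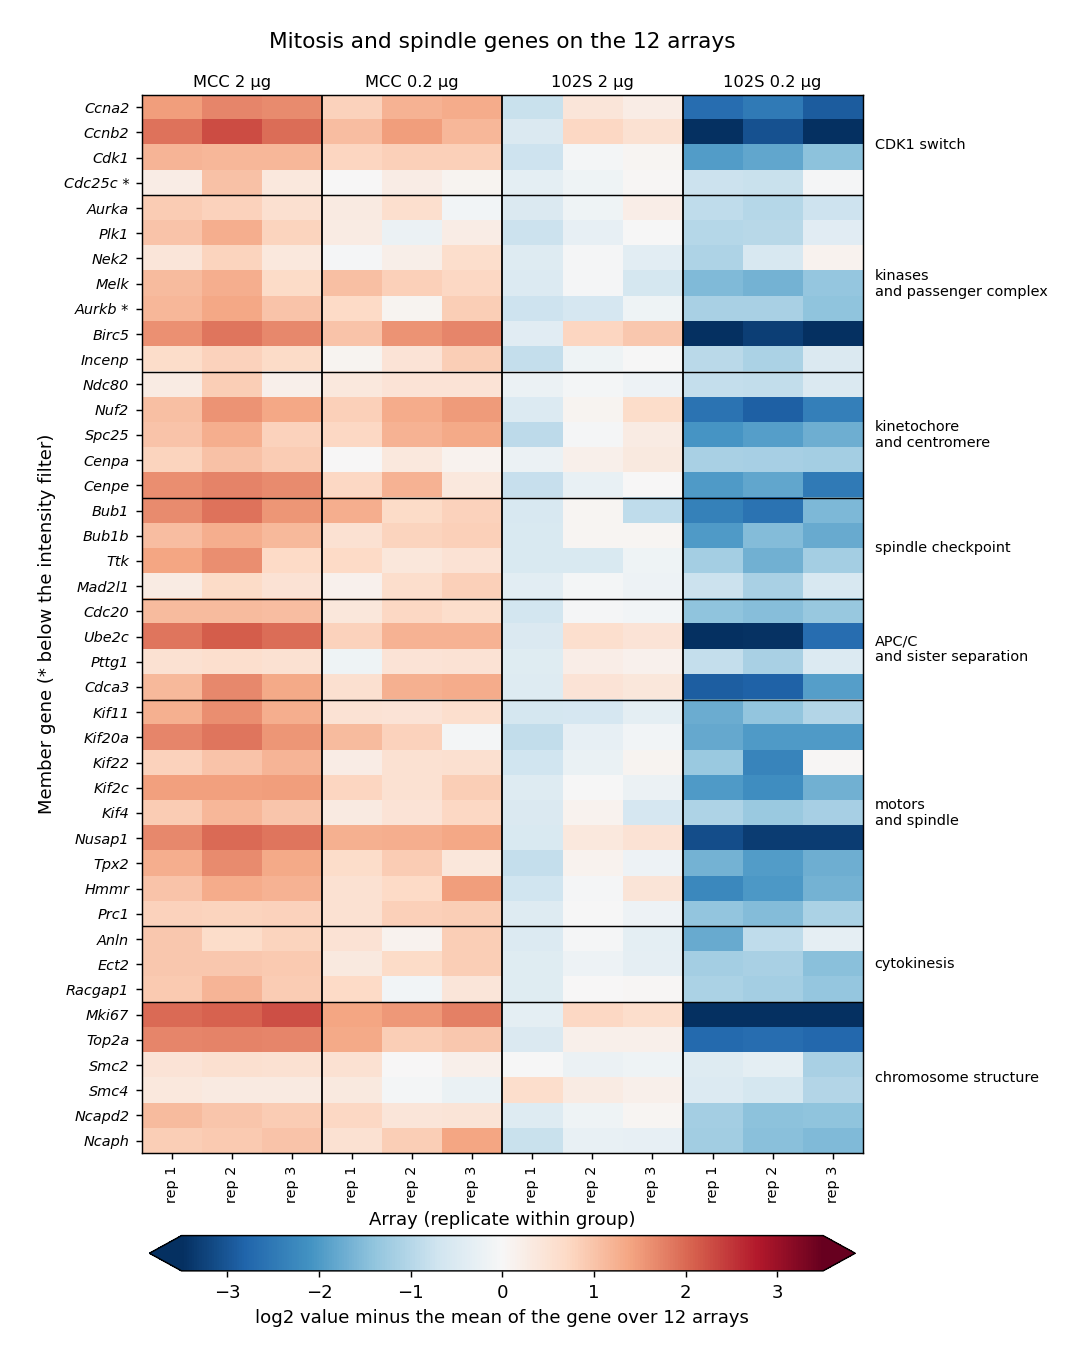
Heat map of the 42 measured members (rows, by role) on the 12 arrays (columns, 3 replicates in each of 4 groups); colour is the log2 value minus the mean of the gene over 12 arrays, and an asterisk marks Cdc25c and Aurkb, which lay below the filter. Colours pass from red with MCC 2 µg to blue with 102S 0.2 µg for nearly every row. The rows of Nek2, Smc4, Cdc25c, Smc2 and Ndc80 vary little, with 1.03 to 1.17 log2 between the means of these 2 groups.

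Within 102S 2 µg the arrays differed. Replicate 1 lay 1.21 log2 above the 102S 0.2 µg mean, while replicates 2 and 3 lay at 1.77 and 1.76, and replicate 1 was the lowest of the group for 34 of 40 members (85%) against 37.1% of all genes. Replicate 1 was also the female-type array of this group. In the other groups replicate 1 was lowest for 22 members with MCC 2 µg (55%, against 17.2% of all genes), 24 with MCC 0.2 µg (60% against 39.1%) and 11 with 102S 0.2 µg (27.5% against 29.8%). The excess of members with a low replicate 1 was thus also seen in the MCC groups, but not with 102S 0.2 µg. Its size was largest with 102S 2 µg. There the median member had replicate 1 at -0.58 log2 from the mean of replicates 2 and 3. This median was -0.10 with MCC 2 µg, -0.24 with MCC 0.2 µg and -0.02 with 102S 0.2 µg. Over all genes it was 0.015 with 102S 2 µg.

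**Figure D2:**
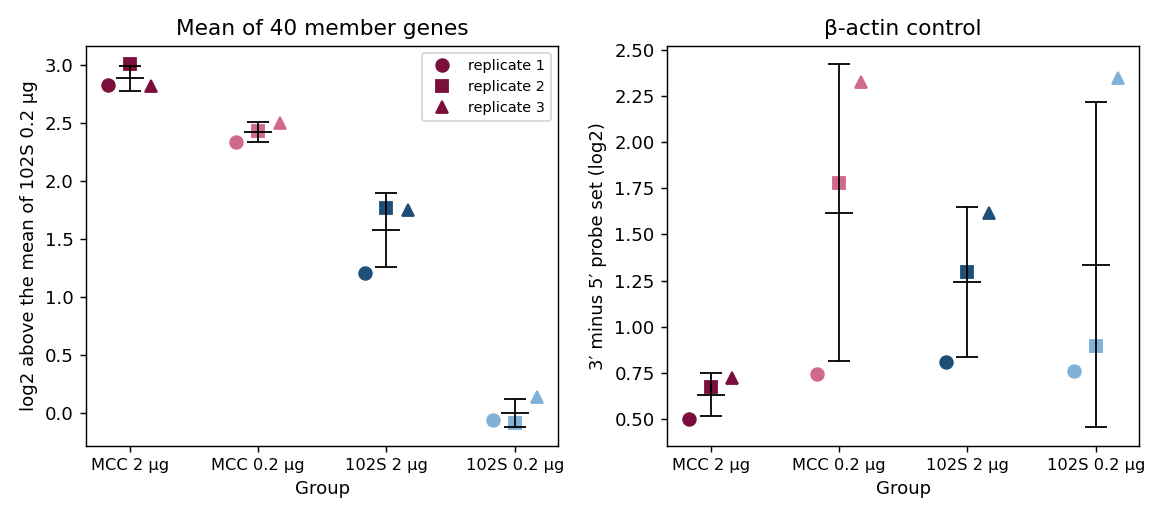
Left, mean of the 40 tested members on each array, in log2 above the mean of the 102S 0.2 µg arrays; right, the 3' minus 5' difference of β-actin on the same arrays in log2; bars are mean ± SD of 3 arrays. The 4 groups do not overlap in the left plot, and the 102S 2 µg replicate 1 array lies at 1.21 below its neighbours at 1.77 and 1.76; in the right plot MCC 2 µg spans 0.50 to 0.72.

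The choice between MCC and 102S asks what the strength of the peptide changes. At 2 µg, 34 of the 40 tested members were higher with MCC and 0 were lower (limma, Benjamini-Hochberg adjusted p under 0.05 over all 13556 probe sets), where 4.43% of all tested genes were higher and 6.83% lower. The median difference of the members was 1.29 log2, against -0.05 over all tested genes. Arrays of the 2 peptides did not overlap for 39 members, against 12.5% of all genes. At 0.2 µg, 39 of 40 members were higher with MCC and 0 were lower, where 9.09% of all genes were higher and 7.02% lower, with a median difference of 2.21 log2 against -0.01. The arrays did not overlap for 39 members, against 15.6% of genes. Without the replicate 1 arrays, 29 members were higher at 2 µg and 37 at 0.2 µg, where 5.72% and 11% of all probe sets were called. With β-actin in the fit, 39 were higher and 1 (Smc4) lower at 2 µg, and 40 were higher at 0.2 µg. That fit called 24.6% and 26.9% of all probe sets at the 2 doses, against 10.3% and 14.3% without β-actin. A fit with the replicate number as a block, quoted below for single genes, called 18.3% of all probe sets at 2 µg. The filter weighs on these counts, since 24 of the 40 members had a 102S 0.2 µg mean below it and passed through the higher groups. Of the 16 whose 4 group means all passed, 11 were higher at 2 µg and 16 at 0.2 µg, with median differences of 1.03 and 1.35 log2.

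The dose comparisons ask what more of the same peptide changes. With 102S, 30 of 40 members were higher at 2 µg than at 0.2 µg and 0 were lower, where 3.3% of all genes were higher and 0.529% lower, and the median difference was 1.16 log2 against 0.01. With MCC, 2 of 40 members were higher at 2 µg and 0 were lower, where 0.717% of genes were higher and 1.21% lower, and the median difference was 0.47 log2 against -0.03. The arrays of the 2 doses did not overlap for 35 members with 102S (14.8% of genes) and for 24 with MCC (7.87% of genes). Of the 16 members with all group means past the filter, 8 were higher with the 102S dose (median 0.94 log2) and 1 with the MCC dose (median 0.34). Without the replicate 1 arrays 26 members were higher at the high dose of 102S (1.99% of all probe sets called), and with β-actin in the fit 37 (10.5% called, against 3.16% without it). Same-numbered arrays of the MCC groups correlated in their deviations from group means (0.56, 0.20 and 0.22). However, MCC 2 µg replicate 3 had 0.217 with replicate 3 and 0.218 with replicate 2 of MCC 0.2 µg, so pairing by number is not shown there. With the replicate number as a block, 12 members were higher at the high dose of MCC. The block fit called 11.5% of all probe sets for that dose, against 1.76% without the block. These comparisons share arrays with the peptide comparisons and are not independent of them.

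**Figure D3:**
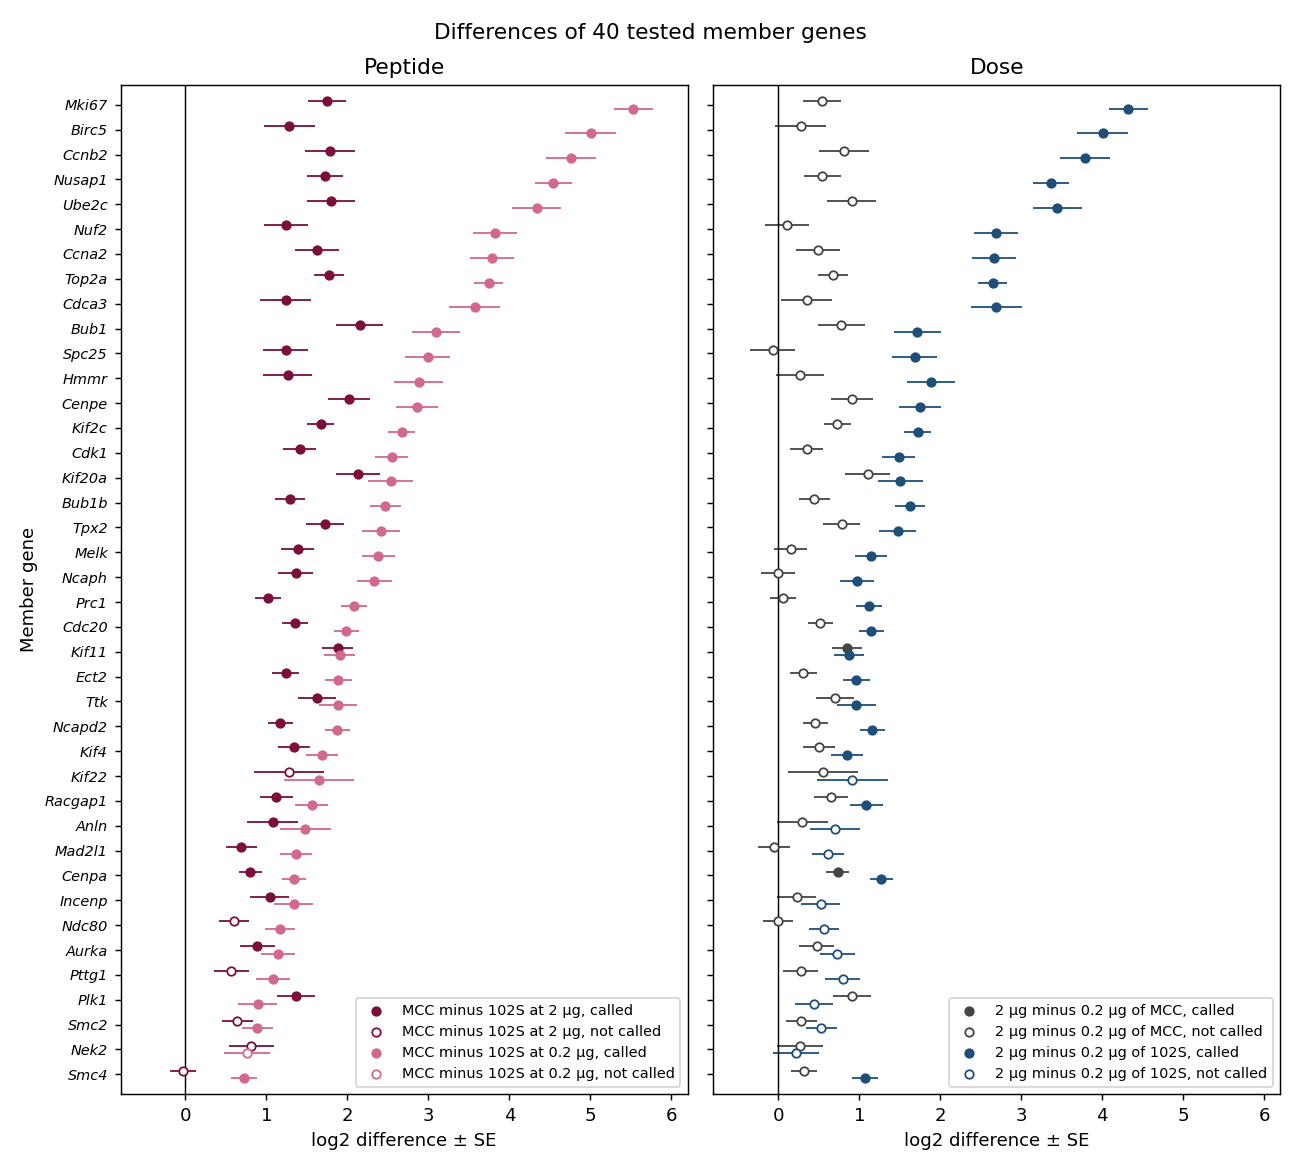
Differences of the 40 tested members in log2 ± SE: left, MCC minus 102S at 2 µg (dark red) and at 0.2 µg (pink); right, 2 µg minus 0.2 µg of MCC (grey) and of 102S (blue); filled circles were called. Rows run by the peptide difference at 0.2 µg, with Mki67 at 5.53 on top, where the 102S 0.2 µg mean lay below the filter, and Smc4 at the bottom, and the grey circles of the MCC dose lie left of most blue ones and are filled for Cenpa and Kif11.

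Of the CDK1 switch, Ccna2, Ccnb2 and Cdk1 were tested, and all 3 were higher with MCC at both doses and with the high dose of 102S. Ccnb2, a mitotic cyclin, had 8.83, 9.24 and 8.90 with MCC 2 µg and 8.02, 8.41 and 8.11 with MCC 0.2 µg (log2). Ccnb2 values were 6.43, 7.68 and 7.49 with 102S 2 µg and 3.40, 3.91 and 2.95 with 102S 0.2 µg (log2). It was higher with MCC by 1.79 ± 0.31 log2 at 2 µg (3.45-fold, adjusted p = 0.00361) and by 4.76 ± 0.31 at 0.2 µg, where the 102S arrays lay below the filter, so that no fold is given. Ccna2, the cyclin of S phase and mitotic entry, had 8.15, 8.41 and 8.34 with MCC 2 µg and 7.50, 7.91 and 8.0 with MCC 0.2 µg (log2). Ccna2 values were 5.92, 7.13 and 6.97 with 102S 2 µg and 4.04, 4.22 and 3.78 with 102S 0.2 µg (log2). Its arrays did not overlap between any neighbouring groups, and the peptide difference was 1.63 ± 0.27 log2 at 2 µg and 3.79 ± 0.27 at 0.2 µg. Cdk1, the kinase itself, had 7.34, 7.30 and 7.30 with MCC 2 µg and 6.91, 6.99 and 7.0 with MCC 0.2 µg (log2). Cdk1 values were 5.42, 6.08 and 6.21 with 102S 2 µg and 4.20, 4.34 and 4.72 with 102S 0.2 µg (log2). It was 2.66-fold higher with MCC at 2 µg (1.41 ± 0.20 log2, adjusted p = 0.00104) and rose with the 102S dose by 1.49 ± 0.20 log2 (adjusted p = 0.00118). Cdc25c, the phosphatase that activates CDK1, averaged 4.92 ± 0.41 with MCC 2 µg, 4.48 ± 0.13 with MCC 0.2 µg, 4.21 ± 0.18 with 102S 2 µg and 3.84 ± 0.42 log2 with 102S 0.2 µg (SD, n = 3) and was below the filter.

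Among the mitotic kinases and the chromosomal passenger complex, 5 of 6 tested genes were higher with MCC at each dose, and only Melk and Birc5 of the 6 passed the test for the 102S dose. Birc5 encodes survivin, the passenger subunit that brings Aurora B to the centromere, and had 8.54, 8.81 and 8.63 with MCC 2 µg and 7.94, 8.53 and 8.67 with MCC 0.2 µg (log2). Birc5 values were 6.54, 7.70 and 7.90 with 102S 2 µg and 3.44, 3.65 and 3.03 with 102S 0.2 µg (log2). The 102S 0.2 µg arrays stood apart from all others by more than 2 log2, and 102S 2 µg replicate 1 lay below its 2 partners. The difference between peptides was 1.28 ± 0.31 log2 at 2 µg (adjusted p = 0.0225; 0.86 log2 without 102S 2 µg replicate 1, adjusted p = 0.0587, and also lost without MCC 2 µg replicate 2 or 3) and 5.01 ± 0.31 at 0.2 µg (adjusted p = 1.03e-06). Plk1, the Polo-like kinase of spindle assembly and mitotic exit, had 6.95, 7.22 and 6.71 with MCC 2 µg and 6.21, 5.73 and 6.19 with MCC 0.2 µg (log2). Plk1 values were 5.19, 5.66 and 5.92 with 102S 2 µg and 4.94, 4.97 and 5.55 with 102S 0.2 µg (log2). Plk1 was 2.58-fold higher with MCC at 2 µg (1.37 ± 0.24 log2, adjusted p = 0.00361) and 1.85-fold at 0.2 µg (0.89 ± 0.24 log2, adjusted p = 0.0251), a call lost without any 1 of 4 arrays (MCC 0.2 µg replicates 1 and 3, 102S 0.2 µg replicates 1 and 2), with 0.79 to 0.82 log2. Its dose difference was 0.91 ± 0.24 log2 with MCC (adjusted p = 0.0803; adjusted p = 0.0232 with the block) and 0.44 ± 0.24 with 102S (adjusted p = 0.499). Aurkb, the Aurora kinase of the passenger complex, had 5.37, 5.56 and 5.20 with MCC 2 µg and 4.88, 4.30 and 5.05 with MCC 0.2 µg (log2). Aurkb values were 3.48, 3.60 and 4.04 with 102S 2 µg and 3.06, 3.06 and 2.78 with 102S 0.2 µg (log2), all below the filter. In a fit without the filter it was higher with MCC by 1.67 ± 0.22 log2 at 2 µg (adjusted p = 0.000508) and by 1.78 ± 0.22 at 0.2 µg (adjusted p = 0.000114).

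Of the other tested genes of this class, 3 were higher with MCC at both doses. Aurka, the Aurora kinase of centrosomes, was higher with MCC by 0.89 ± 0.21 log2 at 2 µg and 1.14 ± 0.21 at 0.2 µg, and Melk, a kinase of the AMPK family, by 1.39 ± 0.20 and 2.38 ± 0.20. Incenp, the scaffold of the passenger complex, was higher by 1.04 ± 0.24 and 1.34 ± 0.24 log2. With the dose of 102S the differences of Aurka (0.73 ± 0.21 log2, adjusted p = 0.107) and Incenp (0.52 ± 0.24, adjusted p = 0.376) did not pass. A second probe set of Incenp was higher with the MCC dose by 0.86 ± 0.16 log2 (adjusted p = 0.0175), while the one used here was not called. Nek2, a centrosome kinase, did not pass at either dose: the peptide difference was 0.81 ± 0.28 log2 at 2 µg (adjusted p = 0.09; adjusted p = 0.026 with the block) and 0.76 ± 0.28 at 0.2 µg (adjusted p = 0.0928). With the dose of 102S it differed by 0.22 log2 and was not called.

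At the kinetochore, the protein assembly that grips microtubules, 4 of 5 members were higher with MCC at 2 µg and 5 of 5 at 0.2 µg. Cenpa encodes the histone H3 variant that marks centromeres and had 9.27, 9.50 and 9.37 with MCC 2 µg and 8.48, 8.84 and 8.61 with MCC 0.2 µg (log2). Cenpa values were 8.28, 8.64 and 8.81 with 102S 2 µg and 7.34, 7.30 and 7.28 with 102S 0.2 µg (log2). The MCC 2 µg arrays lay above all others, and MCC 0.2 µg and 102S 2 µg arrays overlapped. Cenpa was 1.74-fold higher with MCC at 2 µg (0.80 ± 0.15 log2, adjusted p = 0.00467) and 2.53-fold at 0.2 µg (1.34 ± 0.15 log2, adjusted p = 5.77e-05). Ndc80 and Nuf2 are partners in the microtubule-binding Ndc80 complex, and Spc25 is a further subunit. Ndc80 had 5.96, 6.54 and 5.84 with MCC 2 µg and 6.04, 6.16 and 6.15 with MCC 0.2 µg (log2). Ndc80 values were 5.46, 5.60 and 5.49 with 102S 2 µg and 4.85, 4.81 and 5.18 with 102S 0.2 µg (log2). Its MCC doses overlapped, and its peptide difference was 0.60 ± 0.19 log2 at 2 µg (adjusted p = 0.0606; adjusted p = 0.0339 with the block) and 1.17 ± 0.19 at 0.2 µg (adjusted p = 0.00117). Nuf2 had 6.72, 7.23 and 7.0 with MCC 2 µg and 6.49, 6.96 and 7.16 with MCC 0.2 µg (log2). Nuf2 values were 5.18, 5.74 and 6.29 with 102S 2 µg and 3.08, 2.79 and 3.27 with 102S 0.2 µg (log2). Its MCC doses overlapped as well, 102S 0.2 µg lay far below the filter, and the peptide difference was 1.25 ± 0.27 log2 at 2 µg and 3.82 ± 0.27 at 0.2 µg. Spc25 was higher with MCC by 1.24 ± 0.28 and 2.99 ± 0.28 log2, and Cenpe, a kinetochore motor, by 2.02 ± 0.26 and 2.86 ± 0.26.

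All 4 spindle checkpoint members were higher with MCC at both doses. Bub1, the kinase that recruits checkpoint proteins to kinetochores, had 6.89, 7.14 and 6.78 with MCC 2 µg and 6.52, 5.90 and 6.05 with MCC 0.2 µg (log2). Bub1 values were 4.69, 5.32 and 4.35 with 102S 2 µg and 2.88, 2.66 and 3.66 with 102S 0.2 µg (log2). The groups did not overlap at any step, and Bub1 had the largest peptide difference of the 40 members at 2 µg, 2.15 ± 0.29 log2 (4.44-fold, adjusted p = 0.000785). Mad2l1, which encodes the checkpoint effector Mad2, had 8.20, 8.57 and 8.43 with MCC 2 µg and 8.07, 8.54 and 8.75 with MCC 0.2 µg (log2). Mad2l1 values were 7.54, 7.83 and 7.75 with 102S 2 µg and 7.15, 6.77 and 7.36 with 102S 0.2 µg (log2). Its arrays overlapped between the MCC doses, and the peptide difference was 0.69 ± 0.20 log2 at 2 µg (1.61-fold, adjusted p = 0.0431) and 1.36 ± 0.20 at 0.2 µg (2.57-fold, adjusted p = 0.000583). The 2 µg call was lost without any 1 of 8 arrays, at 0.61 to 0.79 log2 (adjusted p up to 0.143). Bub1b, which encodes the checkpoint protein BubR1, was higher with MCC by 1.29 ± 0.19 log2 at 2 µg and 2.47 ± 0.19 at 0.2 µg, and the checkpoint kinase gene Ttk by 1.62 ± 0.24 and 1.88 ± 0.24. With the high dose of 102S, Bub1 (1.72 ± 0.29 log2), Bub1b (1.62 ± 0.19) and Ttk (0.96 ± 0.24, adjusted p = 0.0494) were higher, and Mad2l1 was not called (0.61 ± 0.20, adjusted p = 0.146).

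Of the APC/C activators and genes of sister separation, Cdc20, Ube2c and Cdca3 were higher with MCC at both doses and with the high dose of 102S. Ube2c, the ubiquitin-conjugating enzyme that works with the APC/C, had 8.98, 9.24 and 9.08 with MCC 2 µg and 7.92, 8.34 and 8.32 with MCC 0.2 µg (log2). Ube2c values were 6.60, 7.71 and 7.60 with 102S 2 µg and 3.47, 3.65 and 4.46 with 102S 0.2 µg (log2). It was 3.48-fold higher with MCC at 2 µg (1.80 ± 0.30 log2, adjusted p = 0.00294) and rose with the 102S dose by 3.44 ± 0.30 log2 (adjusted p = 5.34e-05). Cdc20, the activator that gives the APC/C its mitotic targets, had 8.81, 8.81 and 8.81 with MCC 2 µg and 8.13, 8.43 and 8.32 with MCC 0.2 µg (log2). Cdc20 values were 7.08, 7.67 and 7.63 with 102S 2 µg and 6.30, 6.23 and 6.40 with 102S 0.2 µg (log2). The 4 groups did not overlap, and MCC was 2.56-fold higher at 2 µg and 3.96-fold at 0.2 µg (1.35 ± 0.16 and 1.99 ± 0.16 log2). A second probe set of Cdc20 was higher with the MCC dose by 0.97 ± 0.15 log2 (adjusted p = 0.00748), where the one used here was not called. Cdca3, which promotes mitotic entry, had 8.24, 8.78 and 8.44 with MCC 2 µg and 7.66, 8.34 and 8.41 with MCC 0.2 µg (log2). Cdca3 values were 6.65, 7.60 and 7.51 with 102S 2 µg and 4.23, 4.28 and 5.18 with 102S 0.2 µg (log2). The peptide difference was 1.24 ± 0.31 log2 at 2 µg (adjusted p = 0.0265) and 3.57 ± 0.31 at 0.2 µg (adjusted p = 1.19e-05). Without 102S 2 µg replicate 1 the 2 µg difference was 0.94 log2 (adjusted p = 0.104), and the call was also lost without MCC 2 µg replicate 2 or 3 or 102S 2 µg replicate 3. Pttg1, which encodes securin, the inhibitor of separase, was higher with MCC at 0.2 µg (1.08 ± 0.22 log2, adjusted p = 0.00534). It did not pass at 2 µg (0.57 ± 0.22, adjusted p = 0.127, and adjusted p = 0.0334 with the block). At 0.2 µg another probe set of Pttg1 had 1.08 ± 0.21 log2 (adjusted p = 0.00515), and the remaining one was not called (0.13 ± 0.25, adjusted p = 0.778).

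Of 9 motor and spindle genes, 8 were higher with MCC at 2 µg, 9 at 0.2 µg, and 8 with the high dose of 102S. Kif11, the motor that pushes spindle poles apart, had 6.92, 7.30 and 6.95 with MCC 2 µg and 6.19, 6.15 and 6.28 with MCC 0.2 µg (log2). Kif11 values were 5.07, 5.11 and 5.34 with 102S 2 µg and 3.93, 4.30 and 4.67 with 102S 0.2 µg (log2). The groups did not overlap, and MCC was 3.68-fold higher at 2 µg (1.88 ± 0.19 log2, adjusted p = 0.000145) and higher by 1.90 ± 0.19 log2 at 0.2 µg (adjusted p = 2.91e-05). The probe sets of Kif11 disagreed in size: a second one had 2.65, 2.79 and 2.96 log2 with 102S 0.2 µg and a peptide difference of 3.81 ± 0.22 there, and the third had 0.54 ± 0.17 (adjusted p = 0.0538). Nusap1, a microtubule-bundling protein, had 8.24, 8.53 and 8.42 with MCC 2 µg and 7.80, 7.84 and 7.91 with MCC 0.2 µg (log2). Nusap1 values were 6.02, 6.94 and 7.05 with 102S 2 µg and 3.47, 3.23 and 3.22 with 102S 0.2 µg (log2). At 0.2 µg its peptide difference, set against a 102S mean of 3.31 below the filter, was 4.54 ± 0.23 log2 (adjusted p = 2.53e-07), against 1.72 ± 0.23 at 2 µg. Tpx2, the activator of Aurora A on the spindle, had 6.84, 7.22 and 6.90 with MCC 2 µg and 6.21, 6.45 and 5.96 with MCC 0.2 µg (log2). Tpx2 values were 4.73, 5.69 and 5.37 with 102S 2 µg and 3.90, 3.61 and 3.86 with 102S 0.2 µg (log2). Tpx2 was higher with MCC by 1.72 ± 0.23 log2 at 2 µg (3.3-fold) and 2.42 ± 0.23 at 0.2 µg. Kif20a, a motor of the central spindle, was 4.37-fold higher with MCC at 2 µg (2.13 ± 0.28 log2), and Kif2c, which takes microtubules apart at centromeres, 3.19-fold (1.67 ± 0.17). The chromosome-bound motor Kif4 (1.34 ± 0.20 log2), Hmmr (1.26 ± 0.30), a spindle-associated hyaluronan receptor, and Prc1 (1.02 ± 0.16), which bundles midzone microtubules, were higher as well. Kif22, a further chromosome-bound motor, had arrays from 5.17 to 7.53 within 102S 0.2 µg. Its peptide difference of 1.28 ± 0.43 log2 at 2 µg did not pass (adjusted p = 0.0854; adjusted p = 0.0195 with the block), and that of 1.65 ± 0.43 at 0.2 µg did (adjusted p = 0.0244). Another probe set of Kif22 was higher with MCC at 2 µg by 1.18 ± 0.17 log2 (adjusted p = 0.00119). The remaining one was not called there (0.89 ± 0.28, adjusted p = 0.0632). A further Kif2c probe set was not called at 0.2 µg (0.35 ± 0.29 log2, limma adjusted p = 0.467) but was at 2 µg (1.02 ± 0.29). A further Tpx2 probe set was not called at 2 µg (0.73 ± 0.30 log2, adjusted p = 0.155) but was at 0.2 µg (1.69 ± 0.30). For Hmmr, one further probe set was called at neither dose (adjusted p = 0.163 and 0.0572), and another at both (1.74 ± 0.19 and 2.75 ± 0.19 log2).

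All 3 cytokinesis members were higher with MCC at both doses. Ect2, the exchange factor that switches on RhoA at the cleavage furrow, had 6.12, 6.11 and 6.09 with MCC 2 µg and 5.51, 5.84 and 6.03 with MCC 0.2 µg (log2). Ect2 values were 4.76, 4.98 and 4.86 with 102S 2 µg and 3.99, 4.03 and 3.69 with 102S 0.2 µg (log2). The groups did not overlap at any step, and MCC was 2.36-fold higher at 2 µg (1.24 ± 0.17 log2, adjusted p = 0.000694). Anln encodes anillin, a scaffold of the contractile ring, and had 5.48, 5.17 and 5.30 with MCC 2 µg and 5.03, 4.64 and 5.39 with MCC 0.2 µg (log2). Anln values were 4.05, 4.50 and 4.18 with 102S 2 µg and 2.76, 3.63 and 4.22 with 102S 0.2 µg (log2). Its 102S arrays ranged widely, its peptide difference at 2 µg was 1.08 ± 0.31 log2 (adjusted p = 0.048; adjusted p up to 0.144 without 1 array), and that at 0.2 µg was 1.48 ± 0.31 (adjusted p = 0.00781). Racgap1, a subunit of centralspindlin, was higher with MCC by 1.12 ± 0.21 and 1.56 ± 0.21 log2. With the high dose of 102S, Ect2 (0.96 ± 0.17 log2) and Racgap1 (1.09 ± 0.21) were higher and Anln was not called (0.70 ± 0.31, adjusted p = 0.37).

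Among the chromosome genes, 4 of 6 passed the test at 2 µg and 6 of 6 at 0.2 µg, all in the direction of MCC. Mki67 encodes Ki-67, the proliferation antigen that coats mitotic chromosomes, and had 9.91, 9.99 and 10.18 with MCC 2 µg and 9.31, 9.46 and 9.69 with MCC 0.2 µg (log2). Mki67 values were 7.60, 8.67 and 8.56 with 102S 2 µg and 3.82, 3.88 and 4.17 with 102S 0.2 µg (log2). MCC was 3.36-fold higher at 2 µg (1.75 ± 0.24 log2, adjusted p = 0.000787), and at 0.2 µg the difference was 5.53 ± 0.24 log2 against a 102S mean of 3.96, below the filter (adjusted p = 1.35e-07). Top2a, the topoisomerase that untangles sister DNA, had 9.30, 9.32 and 9.30 with MCC 2 µg and 8.91, 8.45 and 8.52 with MCC 0.2 µg (log2). Top2a values were 7.09, 7.75 and 7.75 with 102S 2 µg and 4.88, 4.92 and 4.85 with 102S 0.2 µg (log2). The 4 groups did not overlap, and MCC was 3.42-fold higher at 2 µg and 13.4-fold at 0.2 µg (1.77 ± 0.18 and 3.75 ± 0.18 log2). Smc4, a core subunit of both condensins, had 12.59, 12.55 and 12.54 with MCC 2 µg and 12.57, 12.15 and 12.01 with MCC 0.2 µg (log2). Smc4 values were 12.84, 12.52 and 12.42 with 102S 2 µg and 11.75, 11.61 and 11.21 with 102S 0.2 µg (log2). It was high in every group, and at 2 µg the peptides overlapped, with a difference of -0.03 ± 0.16 log2 (95% confidence interval -0.38 to 0.32, adjusted p = 0.936). At 0.2 µg Smc4 was 1.65-fold higher with MCC (0.72 ± 0.16 log2, adjusted p = 0.0102), and it was 2.1-fold higher with the high dose of 102S (1.07 ± 0.16, adjusted p = 0.00236). Its partner Smc2 had a peptide difference of 0.64 ± 0.19 log2 at 2 µg (adjusted p = 0.055; adjusted p = 0.02 with the block) and 0.89 ± 0.19 at 0.2 µg (adjusted p = 0.00899). The condensin I subunits Ncapd2 and Ncaph were higher with MCC by 1.17 ± 0.16 and 1.36 ± 0.21 log2 at 2 µg and by 1.87 ± 0.16 and 2.33 ± 0.21 at 0.2 µg.

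**Figure D4:**
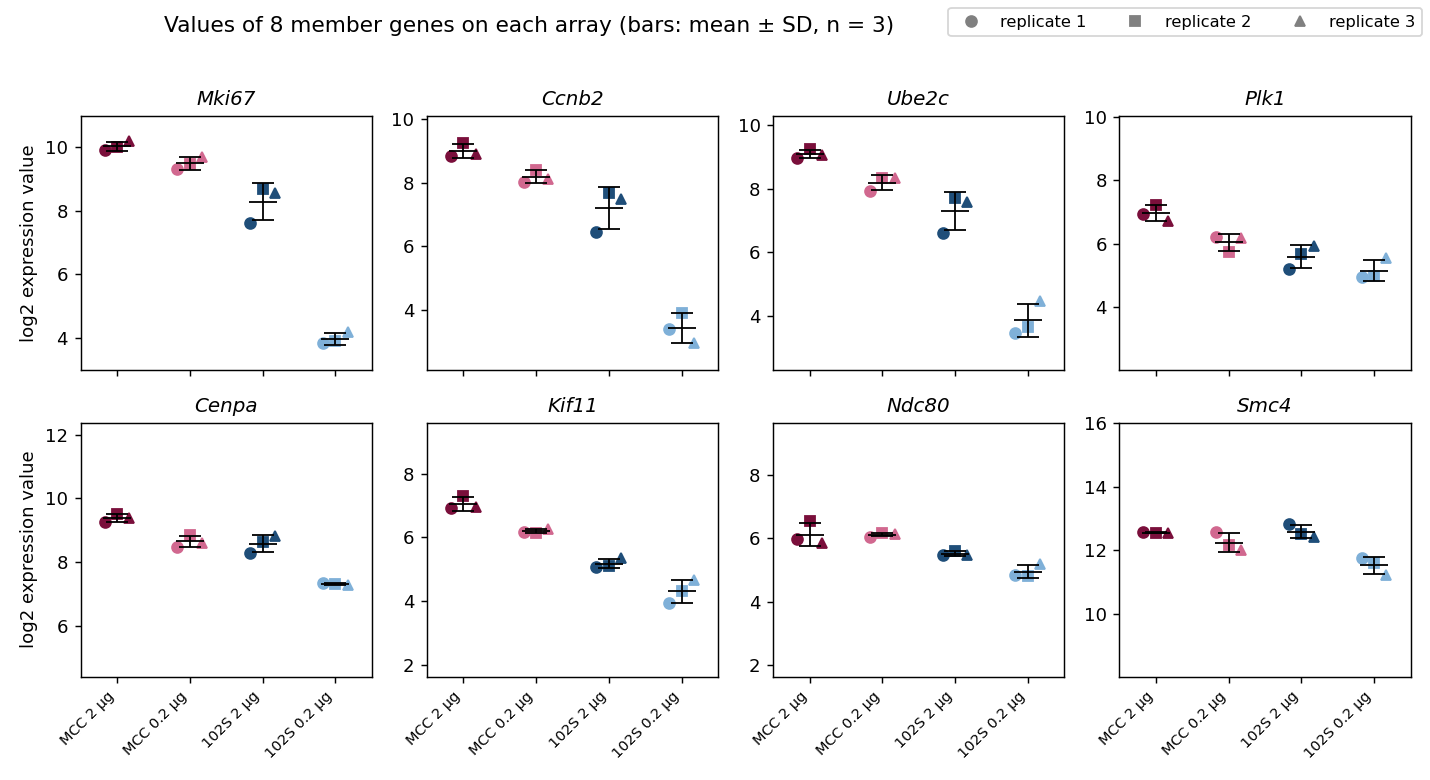
Log2 values of 8 members on each array, by group, with mean ± SD of 3 arrays; all panels have the same height in log2 units, and symbols mark replicates 1 to 3. Mki67, Ccnb2 and Ube2c drop to 3.96, 3.42 and 3.86 in 102S 0.2 µg, Plk1 and Kif11 step down through the groups, and Smc4 stays between 11.2 and 12.8.

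Leaving out 1 array at a time moved some calls near the threshold. Of the 34 calls at 2 µg, 9 were lost without some array, among them 8 (Aurka, Birc5, Cdca3, Hmmr, Incenp, Mad2l1, Nuf2 and Anln) without 102S 2 µg replicate 1 and 8 (Spc25 in place of Anln) without MCC 2 µg replicate 2. The differences without these 2 arrays were 0.61 to 1.21 log2. Aurka was also lost without MCC 2 µg replicate 1 or 102S 2 µg replicate 2, Hmmr without MCC 2 µg replicate 3 or 102S 2 µg replicate 2, and Anln without 102S 2 µg replicate 2 or 3, MCC 0.2 µg replicate 2 or 102S 0.2 µg replicate 2. Anln was tested in only 18 of the 22 alternatives, since its mean fell below the filter, chosen anew, in the others. There it had no call at either dose and is not counted as lost. Among members still tested, Plk1 and Kif22 were lost from the 39 calls at 0.2 µg. Kif22 was lost without MCC 0.2 µg replicate 2 or 3 or 102S 0.2 µg replicate 1 or 2, where it fell to 1.08 log2 without the last (adjusted p = 0.0746). Of the 30 calls for the 102S dose, 6 were lost: Kif11, Kif20a and Racgap1 without 102S 2 µg replicate 2 or 3 (Kif11 also without replicate 1), Ncaph without 4 arrays of the 102S groups, Kif4 without 7 arrays and Ttk without 10, with 0.63 to 1.44 log2.

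The 2 members called for the dose of MCC were Cenpa, higher at 2 µg by 0.73 ± 0.15 log2 (1.66-fold, adjusted p = 0.0262), and Kif11, by 0.85 ± 0.19 (1.8-fold, adjusted p = 0.0458). The other probe sets of Kif11 were not called for this dose (0.78 ± 0.22 log2, adjusted p = 0.111, and 0.16 ± 0.17, adjusted p = 0.635), and the Kif11 call was lost in 16 of 22 alternative settings. Uncalled differences included Kif20a (1.10 ± 0.28 log2, adjusted p = 0.0715), Ube2c (0.91 ± 0.30, adjusted p = 0.157), Kif2c (0.73 ± 0.17, adjusted p = 0.0506) and Top2a (0.68 ± 0.18, adjusted p = 0.0915). With the block these 4 were called (adjusted p = 0.023, 0.0197, 0.0167 and 0.0326), as was Ccnb2 (0.81 ± 0.31 log2, adjusted p = 0.0358). Mki67 (0.54 ± 0.24 log2, adjusted p = 0.261) and Birc5 (0.28 ± 0.31, adjusted p = 0.648) were not. The count of 2 became 0 without any 1 of the MCC 2 µg arrays or without MCC 0.2 µg replicate 3, 7 without MCC 0.2 µg replicate 1, 3 without 102S 0.2 µg replicate 3, 2 without 102S 2 µg replicate 1, and 1 without any 1 of the other 5. Cenpa kept 0.65 to 0.84 log2 over these and the other alternatives. Of all probe sets, 1.76% were called for the MCC dose with all arrays and 8.9% without MCC 0.2 µg replicate 1. The share was 2.48% without 102S 0.2 µg replicate 3 and 0.45% without MCC 0.2 µg replicate 3. With β-actin in the fit 11 members were called (4% of all probe sets), and without the replicate 1 arrays 3 (4.47%).

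The peptide difference itself depended on the dose for 9 members, where 0.843% of all tested genes had a lower peptide difference at 2 µg than at 0.2 µg and 0.0629% a higher one. All 9 had the smaller peptide difference at 2 µg: the change in difference was -3.78 ± 0.34 log2 for Mki67 (adjusted p = 0.000294), -3.72 ± 0.44 for Birc5 (adjusted p = 0.00172), -2.97 ± 0.44 for Ccnb2 (adjusted p = 0.0072), -2.82 ± 0.32 for Nusap1 (adjusted p = 0.00132) and -2.58 ± 0.38 for Nuf2 (adjusted p = 0.008). It was -2.54 ± 0.42 for Ube2c (adjusted p = 0.0145), -2.33 ± 0.44 for Cdca3 (adjusted p = 0.0316), -2.16 ± 0.38 for Ccna2 (adjusted p = 0.0202) and -1.97 ± 0.26 for Top2a (adjusted p = 0.00309). Of the 9, only Cdca3 and Top2a had all 4 group means past the filter. The 102S 0.2 µg mean of Cdca3 (4.56 log2) passed only through replicate 3, its arrays having 4.23, 4.28 and 5.18. The median change over the 40 members was -0.73 log2, against -0.05 over all tested genes. Plk1 had a change of 0.48 ± 0.33 log2 (adjusted p = 0.671), the highest of the 40. The second Kif11 probe set was called (-2.08 ± 0.32 log2, adjusted p = 0.00855) while the first was not. Leaving out 1 array at a time gave 6 to 13 called members, with Ccna2, Cdca3 and Ube2c the ones lost: Cdca3 without 9 of the arrays, Ccna2 without 8, and Ube2c without MCC 2 µg replicate 3, MCC 0.2 µg replicate 2 or 102S 2 µg replicate 3. These fits called 0.457% to 1.05% of all probe sets. Without the replicate 1 arrays 10 members were called (0.797% of all probe sets), and with β-actin in the fit 12 (2.1% of all probe sets called, against 0.767% without it).

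The low dose of the strong peptide was also set against the high dose of the weak one. With MCC 0.2 µg, 17 of 40 members were higher than with 102S 2 µg and 0 were lower, where 1.85% of all genes were higher and 1.11% lower, and the median difference was 0.92 log2 against -0.03. Of the 16 members with all group means past the filter, 5 were higher (median 0.72 log2). The arrays of the 2 groups did not overlap for 33 members, against 10.1% of genes. The largest called difference was that of Bub1, 1.37 ± 0.29 log2 (2.59-fold, adjusted p = 0.0291), followed by Ncaph at 1.36 ± 0.21 (adjusted p = 0.00687). Mki67 was 2.31-fold higher with MCC 0.2 µg (1.21 ± 0.24 log2, adjusted p = 0.0215) and Cdk1 2.09-fold (1.06 ± 0.20, adjusted p = 0.0169). Ccna2 (1.13 ± 0.27 log2), Nuf2 (1.13 ± 0.27), Ccnb2 (0.97 ± 0.31), Birc5 (1.00 ± 0.31) and Ube2c (0.89 ± 0.30) had adjusted p between 0.0509 and 0.164, and between 0.00479 and 0.0281 with the replicate block. Cenpa did not differ beyond its spread (0.07 ± 0.15 log2, 95% confidence interval -0.25 to 0.39, adjusted p = 0.846), and Smc4 had -0.35 ± 0.16 (adjusted p = 0.322). With the replicate number as a block, which takes same-numbered arrays as pairs, 29 members were higher and 1, Smc4, was lower (adjusted p = 0.0383). That fit called 8.46% of all probe sets against 2.48% without the block. Without the replicate 1 arrays 2 were called (1.06% of all probe sets), and with β-actin in the fit 30 (29 higher, 1 lower; 8.68% of all probe sets). The count was 4 without 102S 2 µg replicate 1 and 4 without MCC 0.2 µg replicate 2 or replicate 3, and 13 to 20 without any 1 of the other arrays. Of all probe sets, 0.627%, 0.679% and 0.856% were called in that order, and 1.16% to 4.82% without any 1 of the others.

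Mitotic genes outside the 45 were read from lists made up by function. Their counts stand against the shares of all tested genes called higher, 4.43% for MCC at 2 µg, 9.09% for MCC at 0.2 µg, 3.3% for the dose of 102S and 0.717% for that of MCC. Of the genes named from these lists, Knstrn, Cep55, Aspm, Cenpf, Pbk, Ncapg, Ncapg2 and E2f8 had a 102S 0.2 µg mean below the filter, so that their differences at 0.2 µg rest on such values. Of 18 tested genes of other spindle, motor and centrosome proteins, 10 were higher with MCC at 2 µg, 13 at 0.2 µg, 8 with the high dose of 102S and 1 (Knstrn, 1.41 ± 0.23 log2, adjusted p = 0.00894) with the high dose of MCC, and 0 were lower. Cep55, which recruits the abscission machinery to the midbody, was higher with MCC by 1.82 ± 0.23 log2 at 2 µg (adjusted p = 0.000457) and 3.62 ± 0.23 at 0.2 µg (adjusted p = 1e-06). Aspm, a spindle pole protein, was higher by 3.65 ± 0.31 log2 at 0.2 µg and Stmn1, which destabilises microtubules, by 2.54 ± 0.21. Of 20 other kinetochore and centromere genes, 5 were higher with MCC at 2 µg, 10 at 0.2 µg and 5 with the high dose of 102S, with 0 called for the dose of MCC. Cenpf, a kinetochore-associated protein, was higher with MCC by 1.56 ± 0.19 log2 at 2 µg (adjusted p = 0.000442) and 2.75 ± 0.19 at 0.2 µg (adjusted p = 2e-06).

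Of 17 other mitotic regulators, 4 were higher with MCC at 2 µg, 7 at 0.2 µg and 6 with the high dose of 102S. Pbk, a mitotic kinase, was higher with MCC by 1.37 ± 0.23 and 2.53 ± 0.23 log2 at the 2 doses, and Wee1, the kinase that restrains CDK1, by 1.00 ± 0.21 and 1.70 ± 0.21. Of 12 other tested APC/C genes, 10 subunits with the coactivator Fzr1 and the conjugating enzyme Ube2s, 0 were called by limma in the 4 comparisons, where 0.529% to 9.09% of all genes were called in a given direction. At an unadjusted p under 0.05 there were 2 for the peptide at 2 µg, 0 at 0.2 µg, 4 for the MCC dose and 1 for the 102S dose. Of 12 other condensin and cohesin genes, the condensin subunits Ncapg (1.5 ± 0.23 log2 at 2 µg and 3.20 ± 0.23 at 0.2 µg) and Ncapg2 (1.62 ± 0.31 and 3.30 ± 0.31) were higher with MCC. The cohesin subunit Stag2 was lower with MCC (-0.32 ± 0.08 and -0.33 ± 0.08), and the cohesin loader gene Mau2 was lower at 0.2 µg (-0.63 ± 0.13). Of 12 regulators of mitotic gene transcription, the repressor E2f8 was higher with MCC at both doses (1.35 ± 0.26 and 2.22 ± 0.26 log2) and E2f1, an activator of S phase genes, at 2 µg (0.71 ± 0.19, adjusted p = 0.0356).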

How the data were processed

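Total RNA of sorted 5CC7 T cells from 12 samples was amplified and biotin-labelled from its 3' end and measured on Affymetrix arrays, 1 array per sample, in 4 groups of 3. The deposited log2 values per probe set were used as they stand; per the submitters' processing notes, GCOS 1.4 was used, and the summarisation, background correction and scaling are not given in the sources used here. Array medians differed by at most 0.089 log2. The members and lists were chosen with earlier results of these data known.

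Control probe sets were left out. Probe sets with a mean over the 12 arrays at or above the 40th percentile (4.48 log2) were kept, 13556 in all. Symbols came from the platform annotation: 20393 of 22690 probe sets had 1 symbol, 691 several and 1606 none, and a gene was read from its probe set with the highest mean. One linear model with 4 group means was fitted with limma 3.58.1 in R 4.3.3 (eBayes with an intensity trend), with Benjamini-Hochberg adjustment over all probe sets and a threshold of 0.05. Fits were also run on simulated data with independent noise on each array. Such data lack the shared deviations of same-numbered arrays, so they do not give the rate of false calls here. The number of arrays limits the precision, the median SE of a difference being 0.18 log2.

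Same-numbered arrays were taken as pairs where the correlation of their deviations from group means was over 0.1 for every number: MCC against 102S at 2 µg (0.60, 0.20 and 0.24), the MCC doses (0.56, 0.20 and 0.22) and MCC 0.2 µg against 102S 2 µg (0.82, 0.39 and 0.58). They were not taken as pairs for MCC against 102S at 0.2 µg (lowest -0.29) or the 102S doses (lowest -0.06). Some arrays of different number correlated as well: MCC 2 µg replicate 3 had 0.246 with 102S 2 µg replicate 2 and 0.241 with replicate 3. Over all groups, the best match of an array had its own number in 27 of 36 cases. The rule therefore does not show that replicates 2 and 3 pair by number, and values with the block rest on that choice. The block was fitted over all 12 arrays, including the groups of the comparisons not taken as pairs.

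Alternatives were quantile normalization, median centring, no filter or the 20th percentile, the replicate block, replicates 2 and 3 alone, the compared groups alone, no intensity trend, β-actin 3' minus 5' as a covariate, the mean of a gene's probe sets, and each array left out. The named genes are all members by role, with values on every array for 20 chosen examples and for members called for the MCC dose or for the dependence of the peptide difference on dose, and up to 4 genes of each other list by smallest p.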

Additional observations from a re-analysis of the deposited data

Results flagged for a closer look

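The difference between MCC and 102S was itself different at the 2 doses for 9 members, by the interaction term of the limma fit. The value for each is the peptide difference at 2 µg minus that at 0.2 µg. It was -3.78 log2 for Mki67, -3.72 for Birc5, -2.97 for Ccnb2, -2.82 for Nusap1, -2.58 for Nuf2, -2.54 for Ube2c, -2.33 for Cdca3, -2.16 for Ccna2 and -1.97 for Top2a. In 7 of the 9, all but Cdca3 and Top2a, the 102S 0.2 µg mean lay below the filter. Replicates 1 and 2 of Cdca3 in that group also lay below it, at 4.23 and 4.28 log2. With the 3' minus 5' difference of β-actin in the fit, 12 members had such a change. The part of the lymphocyte markers in these values was not tested.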

How the results depend on the processing

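No called member reversed under any alternative. Of the called members, 25 of 34 (peptide at 2 µg), 34 of 39 (peptide at 0.2 µg), 0 of 2 (MCC dose), 21 of 30 (102S dose), 6 of 9 (change of the peptide difference with dose) and 0 of 17 (MCC 0.2 µg against 102S 2 µg) were called in every setting. Leaving out 1 array gave 25 to 38, 36 to 40, 0 to 7, 24 to 30, 6 to 13 and 4 to 20 called members in the same order, and medians of 1.13 to 1.45, 2.10 to 2.36, 0.43 to 0.53, 1.12 to 1.36, -0.90 to -0.66 and 0.68 to 1.03 log2. Of all probe sets, these fits called 5.16% to 11.8%, 7.74% to 20.6%, 0.45% to 8.9%, 1.55% to 3.7%, 0.457% to 1.05% and 0.627% to 4.82%. With the replicate block, 39, 40, 12, 32, 16 and 30 members were called. That fit called 18.3%, 25.8%, 11.5%, 6.11%, 2.37% and 8.46% of all probe sets in the same order. The shares without the block were 10.3%, 14.3%, 1.76%, 3.16%, 0.767% and 2.48%. Same-numbered arrays were not taken as pairs for the peptides at 0.2 µg or the 102S doses. There replicate 2 had correlations of -0.29 and -0.06. Replicates 1 and 3 had 0.79 and 0.66 for the peptides at 0.2 µg and 0.80 and 0.64 for the 102S doses. For the MCC dose, 1 member was called with no filter, with the 20th percentile filter or with the compared groups alone, and 11 with β-actin in the fit (median 0.67 log2). For MCC 0.2 µg against 102S 2 µg, 2 were called with replicates 2 and 3 alone, 3 with the compared groups alone and 30 with β-actin. The median at 2 µg was 1.49 log2 with β-actin, that at 0.2 µg 1.94 with the mean of probe sets, and that of the 102S dose 1.35 with replicates 2 and 3 alone. Over all uncalled members, sign changes numbered 25 in 8 genes for the MCC dose and 16 in 5 genes for the change with dose. Of the uncalled values given in the text, sign changes were seen for Smc4 at 2 µg (0.078 with replicates 2 and 3 alone, 0.050 with the mean of probe sets, -0.12 to 0.091 with 1 array left out), Nek2 for the 102S dose (with 1 array left out, -0.070 to 0.53) and Cenpa for MCC 0.2 µg against 102S 2 µg (-0.079 to 0.18). The causes were not tested. With an array left out, the filter and a gene's probe set were chosen anew. Further probe sets of members past the filter did not always share the call of the one used. Their call differed for 3 and was the same for 16 (peptide at 2 µg), and for 6 and 13 (peptide at 0.2 µg). It differed for 4 and was the same for 15 (MCC dose), and for 10 and 9 (102S dose). Levels near the filter limit what can be read of the 24 members whose 102S 0.2 µg mean lay below it.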

Other observations

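Genes of the other lists also had a peptide difference that depended on dose. The change was -1.80 ± 0.32 log2 for Cep55 (limma adjusted p = 0.02), -1.74 ± 0.35 for Cenph (adjusted p = 0.043), a subunit of the inner kinetochore, and -1.70 ± 0.32 for Ncapg (adjusted p = 0.0316). For Shcbp1, a midbody protein, it was -1.42 ± 0.29 (adjusted p = 0.043). These comparisons share their arrays with those of the members. All 4 genes had a 102S 0.2 µg mean below the filter (3.53 for Cep55, 3.82 for Cenph, 2.96 for Ncapg and 3.97 log2 for Shcbp1), so the sizes rest on such values.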
